A study of Mus musculus with 22 samples.

Results

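The hypoxia culture experiment compared bone marrow myeloid cells without VISTA against cells that have it, after 24 hours in low oxygen. It makes up 8 of the 22 libraries of the series: 4 labelled VISTA knockout (KO) and 4 labelled wild type (WT). They were chosen as the 4 columns of the hypoxia count table named WT and the 4 with another code, which were read as KO by elimination. Both groups are given the strain background C57BL/6N, the cell type BM myeloid cells, the treatment hypoxia and the time point 24 hours. A normoxia culture experiment with 4 WT and 4 KO libraries (day 4) is used here only to compare the KO effect between the experiments. The remaining 6 libraries come from MC38 tumors, a mouse colon carcinoma model, and were not used here. The series text describes GM-CSF and IL-6 as the culture factors, and independent biological replicates, for the normoxia cultures. It gives neither for hypoxia, nor the oxygen level or the allele behind the KO. The p-values therefore measure the spread between these libraries, which may in part be technical.

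VISTA is a checkpoint protein of the B7 family, encoded by Vsir and carried by myeloid cells, where it restrains immune activation. Myeloid-derived suppressor cells (MDSC) are immature neutrophil-like and monocyte-like cells that dampen T cell responses, in part by breaking down arginine and by making nitric oxide. Neutrophils mature through fixed stages, with primary (azurophil) granule proteins made first, secondary and tertiary granule proteins next, and chemokine receptors and other surface proteins last. The title of the study names metabolism, differentiation, STAT3 and polyamines as the questions behind the comparison.

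Each library held 30839108 to 31385825 counts. Of 33265 genes in the table, 15018 passed the filter on low counts and were tested. The leading principal component (54.6% of the variance) separated the genotypes, with KO libraries at -26.5 to -30.6 and WT libraries at 21.7 to 35.5. Libraries of a group differed by more than counting noise in every pair (the lowest chi-square, divided by its degrees of freedom, was 9.70), so none was counted as a copy. The share of counts from the mitochondrial genome was 3.72% to 5.01% and overlapped between genotypes. The 10 most counted genes made up at least 11.5% of each KO library and 9.42% to 10.2% of a WT library. Below, a level is a count scaled to library size (CPM, with the same scale in all libraries), as mean ± SD over the 4 libraries of a genotype. Each log2 fold change is KO relative to WT, from edgeR's quasi-likelihood test. A gene is called, and is said to have risen or fallen, where its Benjamini-Hochberg adjusted p over all genes tested was under 0.05. CPM is not scaled to gene length, so levels are compared between libraries and not between genes.

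Myeloid genes were read in every library of both genotypes. All 23 listed mature neutrophil genes and all 18 secondary and tertiary granule genes were above the filter, and the summed level of the granule genes was 22107 to 28079 CPM in WT. Of 18 T and NK cell markers, 14 did not pass the filter, Cd3e, Cd4 and Cd8a among them, and those 14 together gave 43 to 92 counts per library. The 4 that were tested summed to 81.5 to 125 CPM in WT and 66.7 to 88.9 CPM in KO, and 1 rose and 1 fell. The fall was not called without KO library 1, 2 or 3 or WT library 3 or 4. Of 16 B and plasma cell markers, 7 did not pass, Ms4a1 among them, with 25 to 41 counts per library for the 7. In bulk RNA, fewer cells of a type and less RNA per cell cannot be told apart, here and for all cell type markers below.

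Vsir, the targeted gene (ENSMUSG00000020101, chromosome 10, 60346851 to 60372684, + strand, GRCm38), was read at 156, 163, 156 and 113 CPM in KO libraries 1 to 4. WT libraries 1 to 4 read 529, 611, 512 and 530.5 CPM. Every KO library was below every WT library, with KO library 4 the lowest. The mean fell from 546 ± 44.3 to 147 ± 23.2 CPM (log2 -1.89 ± 0.11 SE), and the edgeR adjusted p was 9.67e-07. KO libraries kept 26.9% of the WT level. The difference of log2(CPM + 1) was -1.90, with an exact two-sided permutation p of 0.02857, the smallest that 4 against 4 libraries can give. The labels do not say which part of the gene is missing, so it was not tested whether the reads left in KO libraries come from a shortened transcript. Vsir lies inside the interval of Cdh23 (60302748 to 60696490, - strand), a cadherin gene on the opposite strand. Cdh23 rose from 3.16, 3.97, 2.62 and 3.51 CPM in WT to 14.2, 15.99, 25.3 and 11.6 CPM in KO, without overlap (log2 2.34 ± 0.23 SE). Whether counting used strand is not given in the sources used here, so reads of these overlapping genes cannot be told apart where their exons meet.

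**Figure D1:**
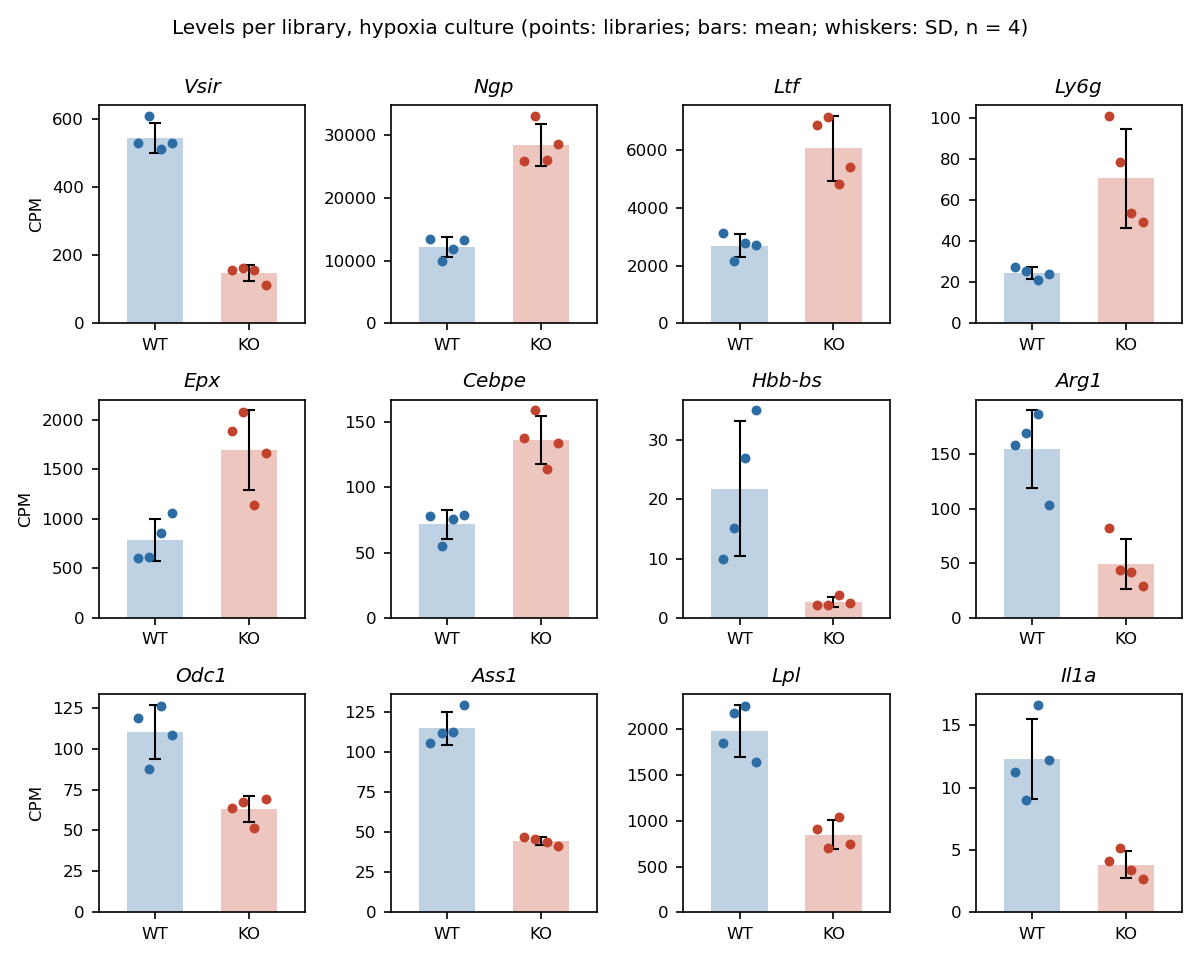
Levels in CPM (y axis, starting at 0) of 12 genes in the 4 WT (blue) and 4 KO (red) hypoxia libraries. Points are libraries, bars are means and whiskers are the SD (n = 4). In each panel every KO library lies on one side of every WT library.

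Loss of VISTA went with calls at 5245 of the 15018 genes, 34.9% of those tested: 2607 rose (17.4%) and 2638 fell (17.6%). Most changes were small, with a median absolute log2 fold change of 0.46 among called genes. At least 2-fold changes were seen for 606 called genes (4.04% of genes tested), of which 450 rose and 156 fell. The ranges of the 4 KO and 4 WT libraries did not overlap for 4892 genes (32.6%). The median log2 fold change over all genes tested was -0.01. Since calls were this common, the counts in the gene lists below are read against these shares. When the test asked for more than a 1.2-fold change (edgeR's glmTreat), 1959 genes were called.

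Rises were ranked among calls without overlap whose average log2 CPM reached 3, and the ranking was led by Mid1 and its copy Mid1-ps1. Mid1 encodes a microtubule-associated ubiquitin ligase and sits at the end of the X chromosome (chromosome X, 169685199 to 170005736, + strand). It was read at 4.31, 4.32, 3.99 and 6.08 CPM in WT and 79.7, 71.1, 103 and 128 CPM in KO libraries (log2 4.35 ± 0.21 SE, edgeR adjusted p = 8e-07). Mid1-ps1, annotated on the Y chromosome, rose from 1.52 ± 0.477 to 31.8 ± 6.38 CPM (log2 4.38). The copies are near identical, so the division of reads between them is uncertain. All 5 genes tested from the start of Mid1 to the end of the X chromosome, and 5 of the 7 tested on the Y chromosome, were called at least 2-fold higher. Those 5 on the Y chromosome lie between 90753057 and 90844040, Mid1-ps1 among them, and the others tested there were not called. The Y chromosome genes Ddx3y, Kdm5d, Uty and Eif2s3y were not among the genes listed with counts, so their levels are not known here. Xist, the RNA that silences an X chromosome in female cells, had 9711 to 14042 counts in every library, with overlap between genotypes, and was not called.

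Grap, an adaptor protein of Ras signalling, rose from 4.98, 4.64, 4.02 and 4.42 CPM in WT to 47.8, 42.3, 58.7 and 48.5 CPM in KO (log2 3.45 ± 0.11 SE, edgeR adjusted p = 2e-08). No WT library came near the lowest KO library. The immunoglobulin genes Igha and Igkc rose from 3.07 ± 1.66 to 30.5 ± 9.73 CPM (log2 3.31) and from 3.43 ± 0.647 to 31.1 ± 12.2 CPM (log2 3.18), with KO library 4 the lowest KO library for both. Fcrlb, an intracellular Fc receptor-like protein, rose from 4.34 ± 1.16 to 17.1 ± 6.33 CPM (log2 1.98). Ear1, an eosinophil ribonuclease, rose from 35.7 ± 9.05 to 116 ± 39.4 CPM (log2 1.69). Cmpk2, a mitochondrial nucleotide kinase induced by interferon, rose from 6.18 ± 0.789 to 19.1 ± 2.49 CPM (log2 1.63). Pttg1, the securin of mitosis, rose from 11.3, 11.5, 9.94 and 11.2 CPM in WT to 27.6, 32.2, 35.0 and 40.7 CPM in KO (log2 1.63 ± 0.11 SE). The serine protease inhibitor Serpinb10 and the scaffold protein Card10 completed the 12 largest rises. They went from 6.75 ± 0.683 to 20.5 ± 1.38 CPM (log2 1.604) and from 6.76 ± 0.764 to 19.6 ± 2.11 CPM (log2 1.53).

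Apart from Vsir, the largest falls held 3 globin genes. Hbb-bs, an adult beta globin, was read at 9.90, 15.2, 27.1 and 35.1 CPM in WT and 2.10, 2.21, 3.79 and 2.57 CPM in KO (log2 -3.03 ± 0.40 SE, edgeR adjusted p = 0.000521). WT libraries differed among themselves by more than 3 times, with WT library 4 the highest and WT library 1 the lowest, and all 4 were above all KO libraries. The alpha globins Hba-a1 and Hba-a2 fell from 24.4 ± 11.9 to 3.98 ± 1.28 CPM (log2 -2.62) and from 19.4 ± 10.3 to 3.09 ± 1.21 CPM (log2 -2.65); their sequences are nearly the same, so the split between them is uncertain. Olfml2b, a secreted olfactomedin-like matrix protein, was read at 42.5, 29.0, 40.4 and 41.3 CPM in WT and 7.77, 6.13, 6.73 and 7.84 CPM in KO (log2 -2.43 ± 0.13 SE, edgeR adjusted p = 6.58e-07). WT library 2 was the lowest of its group and still above every KO library. Other large falls were Pmp22, a myelin membrane protein, from 16.3 ± 2.44 to 4.44 ± 1.43 CPM (log2 -1.88), and the SLAM receptor Cd244a from 47.6 ± 12.02 to 13.6 ± 3.08 CPM (log2 -1.80). The cytokine Il1a fell from 12.3 ± 3.19 to 3.83 ± 1.07 CPM (log2 -1.68). The lipid phosphodiesterase Smpdl3b fell from 22.9 ± 4.94 to 7.34 ± 0.759 CPM (log2 -1.64), the leucine zipper protein Luzp1 from 48.2 ± 5.41 to 16.4 ± 3.06 CPM (log2 -1.56), and podoplanin (Pdpn) from 21.6 ± 4.04 to 7.95 ± 2.56 CPM (log2 -1.44). Arg1, also among the 12 largest falls, is described with the arginine genes.

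By difference of mean CPM, which is not scaled to gene length, 6 of the 8 largest gains were in neutrophil genes. Ngp, neutrophilic granule protein, gained most, followed by Thbs1, S100a9, Ltf, Lcn2, Chil3, S100a8 and Epx. Thbs1, the matrix protein thrombospondin, rose from 10992 ± 1248 to 14941 ± 1685 CPM (log2 0.44). The 8 largest losses were those of the genes that follow. Gapdh, a glycolytic enzyme, fell from 7484 ± 342 to 5413 ± 227 CPM (log2 -0.47), and Lpl, the lipoprotein lipase, fell from 1983 ± 286 to 850.4 ± 158 CPM (log2 -1.22). Fth1, the ferritin heavy chain, fell from 3385 ± 372 to 2277 ± 334 CPM (log2 -0.57). The intermediate filament Vim fell from 2702 ± 289 to 1917 ± 269.6 CPM (log2 -0.49), Pkm, pyruvate kinase, from 5034 ± 78.3 to 4309 ± 59.3 CPM (log2 -0.22), and the chaperone Hsp90ab1 from 2533 ± 103 to 1866 ± 63.6 CPM (log2 -0.44). The chemokine Ccl6 fell from 2948 ± 399 to 2268 ± 205 CPM (log2 -0.38), with overlap between genotypes. Eef1a1, the elongation factor of translation, fell from 7593 ± 229 to 6549 ± 339 CPM (log2 -0.21). Its edgeR adjusted p of 0.0241 became 0.0661, 0.0609, 0.0566 and 0.0575 without KO library 2, KO library 3, KO library 4 and WT library 3.

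Most genes of the later neutrophil granules rose in KO. Of 18 secondary and tertiary granule genes, 14 rose and 4 did not pass, with a median log2 fold change of 0.87 against -0.01 over all genes tested. Their summed level was 22107 to 28079 CPM in the WT libraries and 46681 to 58152 CPM in the KO libraries, 204% of WT on average. Ngp was read at 13403, 9955, 11797 and 13221 CPM in WT and 25853, 33133, 26101 and 28673 CPM in KO (log2 1.23 ± 0.11 SE, edgeR adjusted p = 1.72e-05). Lactoferrin (Ltf), an iron-binding antimicrobial protein, was read at 3123, 2173, 2773 and 2701 CPM in WT and 6880.4, 7173, 4822 and 5429.8 CPM in KO (log2 1.17 ± 0.14 SE). All KO libraries were above all WT libraries for both genes. Olfm4, which marks a subset of neutrophils, rose from 60.4 ± 6.74 to 169 ± 25.1 CPM (log2 1.48), and Ceacam1, an adhesion receptor of the granule membrane, rose from 330.0 ± 15.8 to 684 ± 67.7 CPM (log2 1.05). Lcn2, a siderophore-binding protein, rose from 2610.3 ± 342 to 4698 ± 531 CPM (log2 0.85), the chitinase-like Chil3 from 2919 ± 221 to 4414 ± 401 CPM (log2 0.60), and annexin A1 (Anxa1) from 575 ± 39.4 to 1005 ± 47.9 CPM (log2 0.81). Hp, haptoglobin, did not follow, at 456 ± 51.7 (WT) and 430.0 ± 4.92 CPM (KO) (log2 -0.09). Mmp8, neutrophil collagenase, also did not pass, at 1099 ± 192 (WT) and 1256 ± 264 CPM (KO) (log2 0.19).

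Late granule genes are classical targets of the C/EBP family, whose core site can be written TTGCNNAA. The promoter table (RefSeq, GRCm38.p6; 250 bases before to 50 after a start) held 14 of the 18 genes, and 6 of the 14 carried the letters on either strand, against 12.2% of all genes in the table. Among the 12 matched genes that rose, 4 carried it, and among the 2 that were not called, Mmp8 and Adam8, both did. A window of each of the 4 risen genes is shown because it places the matched letters, in capitals, before the start site. Each is read on the gene's strand, so a match on the other strand shows as its reverse complement.
Ltf, chr9:111019197-111019244, + strand: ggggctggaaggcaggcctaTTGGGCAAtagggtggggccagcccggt
Ngp, chr9:110419650-110419697, + strand: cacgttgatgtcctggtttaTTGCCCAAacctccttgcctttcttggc
Lcn2, chr2:32387928-32387975, - strand: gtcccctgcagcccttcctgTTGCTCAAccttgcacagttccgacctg
Anxa1, chr19:20390787-20390834, - strand: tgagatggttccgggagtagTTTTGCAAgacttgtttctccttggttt
The first matched base stood 75, 138, 216 and 143 bases before the start of Ltf, Ngp, Lcn2 and Anxa1. Another match in Ngp, on the other strand and not shown, began 11 bases before the start. A match of letters is a description of the sequence and says nothing of binding in these cells.

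Of 23 genes of mature neutrophils, 14 rose and 9 did not pass (median log2 0.50). Ly6g, the surface marker of mouse neutrophils, was read at 27.5, 25.6, 20.9 and 24.2 CPM in WT and 101.3, 78.4, 53.6 and 49.2 CPM in KO (log2 1.53 ± 0.21 SE, edgeR adjusted p = 0.000669). Every KO library was above every WT library, and KO libraries 1 and 2 were above KO libraries 3 and 4. The integrin Itgb2l rose from 147 ± 17.0 to 337 ± 21.3 CPM (log2 1.19) and the MYC antagonist Mxd1 from 592 ± 37.3 to 831 ± 24.7 CPM (log2 0.49). Padi4, which citrullinates histones in neutrophil traps, rose from 251 ± 21.3 to 438 ± 67.5 CPM (log2 0.80). The alarmins S100a8 and S100a9, which form calprotectin, rose from 3118 ± 595 to 4400.0 ± 300.3 CPM (log2 0.50 ± 0.12 SE) and from 6899 ± 1237 to 10466 ± 569 CPM (log2 0.60 ± 0.11 SE). Ly6c2 is a surface marker shared with monocytes and is listed with the monocyte genes below. It rose from 1404 ± 84.4 to 1663 ± 119 CPM (log2 0.24 ± 0.07 SE), a change of under 1.2-fold. Its edgeR adjusted p of 0.0209 became 0.0515, 0.0577 and 0.0672 without KO library 3, KO library 4 and WT library 3.

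Of 9 primary granule genes, 4 rose and 5 did not pass (median log2 0.30). Elane, neutrophil elastase, rose from 599, 428, 571 and 654 CPM in WT to 905, 970.2, 795 and 1006 CPM in KO (log2 0.71 ± 0.12 SE). Myeloperoxidase (Mpo) rose from 805 ± 161 to 1208 ± 206 CPM (log2 0.59), with KO library 3 (967 CPM) below WT library 4 (979 CPM). The elastase inhibitor Serpinb1a rose from 303 ± 33.9 to 497 ± 46.4 CPM (log2 0.72), and the serine protease Prss57 from 12.2 ± 2.67 to 22.2 ± 3.33 CPM (log2 0.87). Prtn3, proteinase 3, did not pass, at 385 ± 63.5 (WT) and 456 ± 54.2 CPM (KO) (log2 0.25).

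The phagocyte oxidase makes superoxide for microbial killing. Of its 8 listed genes, 6 rose. Cybb, the catalytic subunit, rose from 1579, 1576, 1637 and 1703 CPM in WT to 2449.8, 2616, 2442 and 2555 CPM in KO (log2 0.63 ± 0.06 SE, edgeR adjusted p = 2.42e-05), without overlap. Its regulators followed: the GTPase Rac2 rose from 1017 ± 38.0 to 1438 ± 87.4 CPM (log2 0.50), and the cytosolic subunits Ncf1 from 691 ± 43.3 to 945 ± 58.3 CPM (log2 0.45) and Ncf4 from 161 ± 10.1 to 212 ± 8.38 CPM (log2 0.39). Cyba, the other membrane subunit, did not pass (log2 -0.06).

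Among 26 myeloid transcription factors, 9 rose and 6 fell (median log2 -0.05). The risen numbered 6 without KO library 1 or 3 or WT library 1, 3 or 4, and 7 without KO library 2. Past 1.2-fold, 5 rose and 3 fell. Factors of granulocyte development were among the risen. Cebpe, which drives secondary granule genes, was read at 77.9, 55.3, 76.1 and 78.5 CPM in WT and 138, 159, 114 and 134 CPM in KO (log2 0.92 ± 0.12 SE, edgeR adjusted p = 0.000241). Cebpd rose from 39.7 ± 1.74 to 67.7 ± 4.26 CPM (log2 0.77), and Cebpa, which starts the granulocyte programme, from 87.9 ± 4.86 to 117 ± 7.95 CPM (log2 0.41). Tfec, a factor of macrophages, fell from 120.1 ± 10.7 to 83.9 ± 5.61 CPM (log2 -0.52), and Batf3, needed by a dendritic cell lineage, fell from 1.89 ± 0.491 to 0.806 ± 0.190 CPM (log2 -1.22). Among the 12 tested genes of colony-stimulating factors and their receptors, 3 rose: the G-CSF receptor Csf3r from 187 ± 50.04 to 317 ± 52.3 CPM (log2 0.76), the stem cell factor receptor Kit from 25.5 ± 2.88 to 45.1 ± 4.42 CPM (log2 0.82) and the interleukin 5 receptor Il5ra from 1.16 ± 0.460 to 2.48 ± 0.787 CPM (log2 1.10). The macrophage receptor Csf1r did not pass, at 398 ± 47.0 (WT) and 312 ± 77.8 CPM (KO) (log2 -0.35), nor did Csf2rb, the shared chain of the GM-CSF receptor (log2 -0.09).

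**Figure D2:**
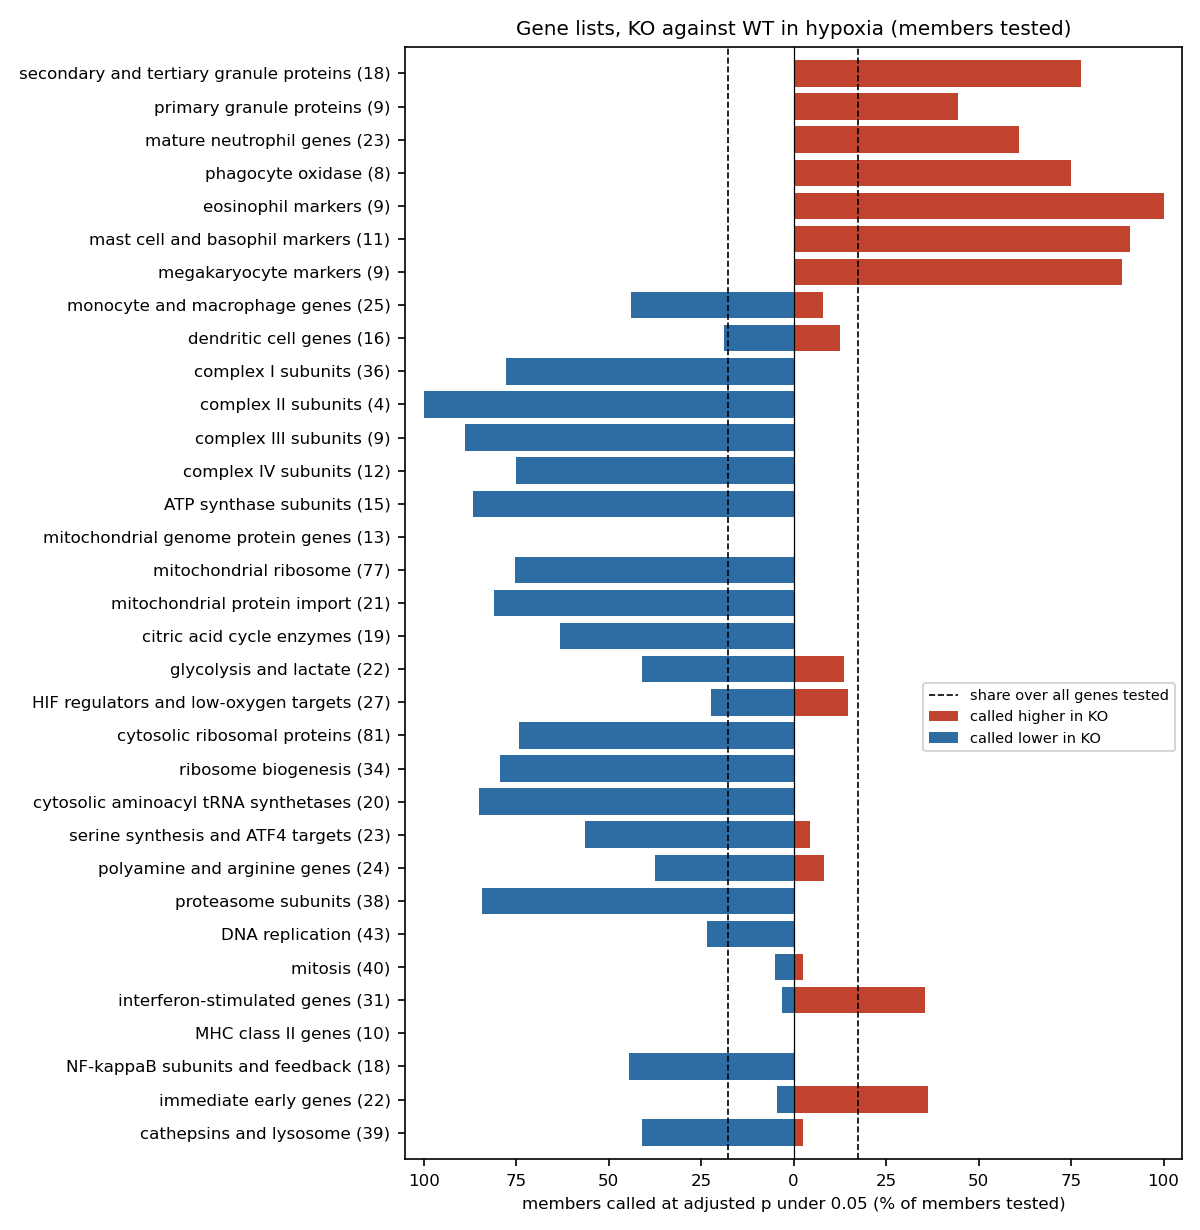
Share of tested members (x axis, %) called higher (red, right) or lower (blue, left) in KO for 33 gene lists, with the number of members tested beside each name. Dashed lines give the shares over all genes tested, 17.4% higher and 17.6% lower. Granulocyte lists extend to the right, and lists of nuclear genes for mitochondria and of translation genes to the left. The mitochondrial genome list has no bar.

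Genes of 3 further lineages of the marrow also rose. All 9 eosinophil markers rose, with a median log2 fold change of 1.21, and their summed level went from 1131 to 1798 CPM in WT to 2229.8 to 3968 CPM in KO. Epx, eosinophil peroxidase, was read at 608, 619, 852 and 1058 CPM in WT and 1883, 2078, 1139 and 1667 CPM in KO (log2 1.11 ± 0.22 SE, edgeR adjusted p = 0.00420). The groups did not overlap, and KO library 3 was the lowest of its group. Siglecf, a sialic acid receptor of eosinophils, rose from 13.9 ± 0.559 to 27.9 ± 3.46 CPM (log2 1.01). The chemokine receptor Ccr3 rose from 0.451 ± 0.0649 to 1.63 ± 0.300 CPM (log2 1.85), and the ribonucleases Ear2 and Ear6, which have near-identical copies, from 70.6 ± 11.1 to 153 ± 33.2 CPM (log2 1.12) and from 63.7 ± 9.50 to 147 ± 23.6 CPM (log2 1.21).

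Of 11 mast cell and basophil markers, 10 rose (median log2 0.75). Without KO library 1 or without WT library 3 the count was 6 in each case. Cpa3, the mast cell carboxypeptidase, rose from 86.8 ± 14.5 to 157 ± 24.2 CPM (log2 0.86 ± 0.13 SE), and Ms4a2, the beta chain of the IgE receptor, from 18.2 ± 3.48 to 30.3 ± 4.78 CPM (log2 0.73). Fcer1a, the IgE-binding chain, rose from 1.73 ± 0.541 to 3.91 ± 0.514 CPM (log2 1.18). The connective tissue mast cell proteases Mcpt4, Tpsab1 and Cma1 did not pass the filter; with Tph1 they gave 3 to 19 counts per library. Of 9 megakaryocyte markers, 8 rose (median log2 0.99). The von Willebrand receptor chain Gp1ba rose from 9.81 ± 0.723 to 25.1 ± 5.47 CPM (log2 1.36 ± 0.14 SE), the integrin Itga2b from 51.5 ± 4.24 to 98.1 ± 18.1 CPM (log2 0.93), the receptor chain Gp9 from 3.93 ± 0.381 to 7.89 ± 1.36 CPM (log2 1.002), and the platelet chemokine Ppbp from 30.3 ± 6.86 to 79.6 ± 16.8 CPM (log2 1.39).

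Erythroid genes did not move as one. The 4 globin genes fell, with Hbb-bt going from 8.198 ± 4.05 to 1.17 ± 0.258 CPM (log2 -2.81), while the erythroid and megakaryocyte factor Gata1 rose from 4.29 ± 0.507 to 8.37 ± 1.64 CPM (log2 0.96). A further 7 erythroid markers, Alas2 and Car1 among them, did not pass the filter and gave 11 to 70 counts per library together. Of 9 B and plasma cell markers tested, 4 rose and 1 fell. The fall was not called without KO library 3 or 4 or WT library 1, 2 or 4. The plasma cell genes Jchain, Igha and Igkc rose by log2 2.996, 3.31 and 3.18. Ighm, the IgM heavy chain, rose from 60.3 ± 4.57 to 100.9 ± 16.6 CPM (log2 0.74). The B cell signalling genes Cd79a and Cd79b did not pass (log2 0.28 and -0.04).

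More monocyte and macrophage genes fell than rose. Of 25 tested, 11 fell and 2 rose (median log2 -0.35). Without WT library 2, 5 rose and 9 fell, and without KO library 4, 4 and 10. The risen numbered 1 without KO library 3 or WT library 3. Lpl was read at 1853, 2179, 2257 and 1644 CPM in WT and 915, 702, 1042 and 742 CPM in KO (log2 -1.22 ± 0.13 SE, edgeR adjusted p = 7.59e-05), without overlap. Pparg, a lipid-sensing nuclear receptor, fell from 50.9 ± 4.64 to 32.4 ± 4.10 CPM (log2 -0.65). The scavenger receptor Msr1 fell from 69.3 ± 9.24 to 33.9 ± 7.45 CPM (log2 -1.03), and the fatty acid carrier Fabp5 from 124 ± 15.4 to 69.3 ± 14.4 CPM (log2 -0.84). Csf1r, given above, was not called. Ly6c2, also given above, was among the risen, and the largest rise on the list was log2 1.165. Of 16 dendritic cell genes, 3 fell and 2 rose, shares close to those over all genes tested; the risen numbered 1 without KO library 1, 2 or 4 or WT library 1, 2 or 3. The integrin Itgax (CD11c) fell from 73.3 ± 9.31 to 39.9 ± 10.7 CPM (log2 -0.88). The 10 class II genes had no call, none at an unadjusted p under 0.05 and none with DESeq2, the other tool run. H2-Ab1, a class II beta chain, was read at 135, 178, 120.3 and 146 CPM in WT and 142, 116, 126 and 60.3 CPM in KO, where KO library 4 was the lowest of all 8.

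**Figure D3:**
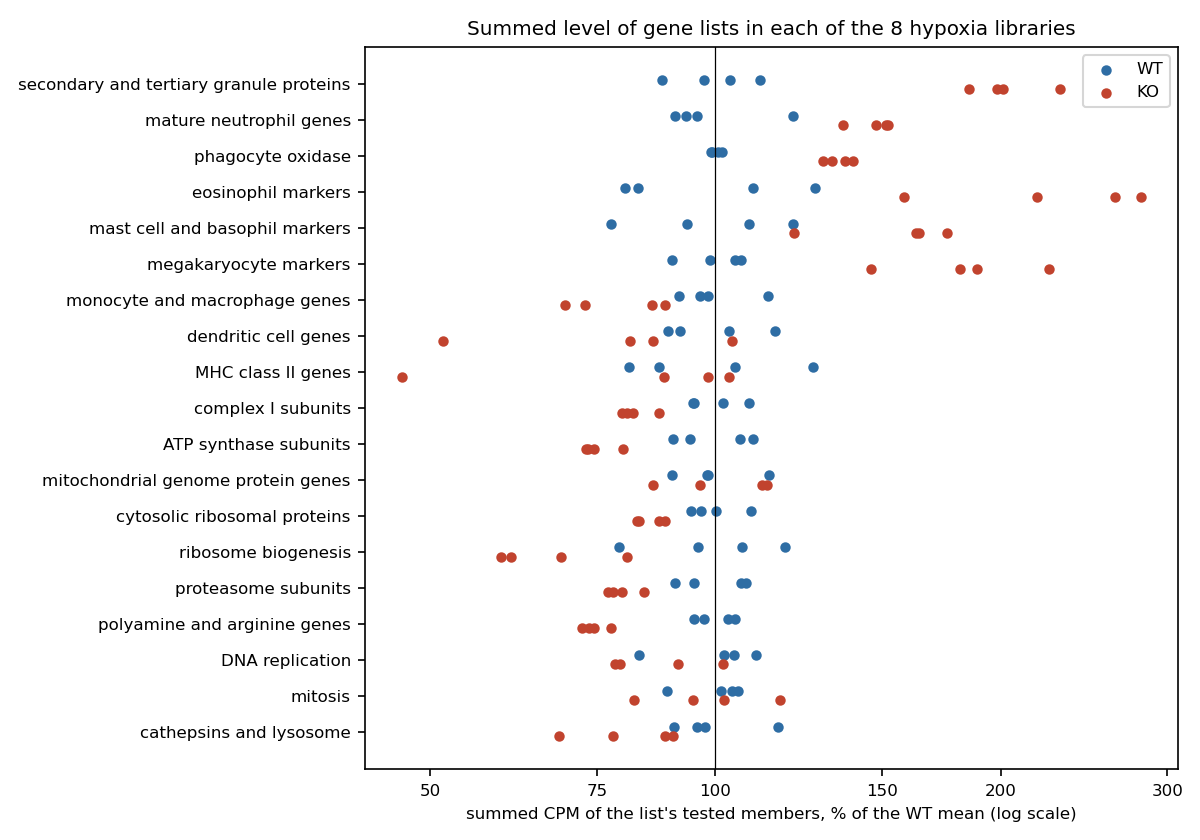
Summed CPM of 19 gene lists in each library, as a percentage of the WT mean (x axis, log scale), WT libraries in blue and KO libraries in red. Secondary and tertiary granule genes reached 203.9% of the WT level on average, ATP synthase genes 75.2%, and the ranges of the mitochondrial genome genes overlapped.

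Nuclear genes of the respiratory chain fell in every complex. In complex I, the NADH dehydrogenase, 28 of 36 subunits fell (median log2 -0.34). In complex II, 4 of 4 fell, in complex III 8 of 9, in complex IV 9 of 12, and in the ATP synthase 13 of 15. The complex IV count was 5 without KO library 1 and 5 without KO library 2. The falls were modest: with the 1.2-fold threshold, 6, 2, 3, 1 and 5 of these genes were called. Atp5g1, a subunit of the membrane rotor, was read at 77.7, 60.1, 77.4 and 63.7 CPM in WT and 36.2, 35.8, 37.9 and 45.1 CPM in KO (log2 -0.85 ± 0.10 SE, edgeR adjusted p = 0.000128). Atp5b, the catalytic beta subunit, fell from 731 ± 86.4 to 499.8 ± 28.7 CPM (log2 -0.55). Further falls were those of Ndufa12 from 27.7 ± 3.84 to 17.7 ± 1.65 CPM (log2 -0.65), the succinate dehydrogenase subunit Sdhc from 75.03 ± 4.03 to 51.0 ± 0.579 CPM (log2 -0.56), Uqcr11 from 23.1 ± 3.24 to 14.6 ± 1.38 CPM (log2 -0.66) and Cox6b1 from 100.0 ± 8.25 to 73.9 ± 2.42 CPM (log2 -0.44).

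The 13 protein genes of the mitochondrial genome had no call with edgeR and none with DESeq2; 1 had an unadjusted edgeR p under 0.05. With edgeR, 1 was called higher without KO library 2 and 1 lower without WT library 4. Their log2 fold changes ran from -0.21 to 0.22, and their summed level was 38868 to 49296 CPM in WT and 37179 to 49039 CPM in KO. The nuclear genes that serve mitochondrial translation and import fell with the chain. Of 77 mitochondrial ribosomal proteins, 58 fell (median log2 -0.39; 37 without WT library 3 and 20 past 1.2-fold). Mrpl52 fell from 15.7 ± 2.04 to 8.98 ± 1.27 CPM (log2 -0.81), and Mrpl38 from 18.2 ± 1.25 to 11.6 ± 0.589 CPM (log2 -0.66). Of 21 import genes, 17 fell (median log2 -0.44; 8 past 1.2-fold), among them the entry channel Tomm40 from 53.6 ± 9.03 to 32.0 ± 4.38 CPM (log2 -0.74) and the chaperone Hspa9 from 226 ± 31.7 to 149 ± 19.1 CPM (log2 -0.61). Of 19 citric acid cycle enzymes, 12 fell (2 past 1.2-fold), with Idh2, the mitochondrial NADP-linked isocitrate dehydrogenase, going from 91.8 ± 6.75 to 58.7 ± 4.40 CPM (log2 -0.65). Of 21 fatty acid oxidation genes, 9 fell; Hadh, a dehydrogenase of the pathway, fell from 40.3 ± 1.87 to 30.1 ± 2.23 CPM (log2 -0.42).

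Glycolysis genes changed in both directions. Of 22 genes, 9 fell and 3 rose, and the risen included a glucose transporter, a hexokinase and a regulator. Past 1.2-fold, 2 fell and 3 rose. Slc2a3, the transporter GLUT3, was read at 197, 259, 184 and 248 CPM in WT and 447, 411, 381 and 392 CPM in KO (log2 0.88 ± 0.11 SE). Slc2a1, the transporter GLUT1, went the other way, from 329, 352, 349 and 334 CPM in WT to 247, 237, 237 and 215 CPM in KO (log2 -0.54 ± 0.06 SE). Neither pair of groups overlapped. Hk3, a hexokinase of granulocytes, rose from 225 ± 8.24 to 318 ± 24.6 CPM (log2 0.50), and Pfkfb4, which sets the level of a glycolytic activator, from 44.8 ± 1.502 to 76.3 ± 4.14 CPM (log2 0.77). Gapdh, named above, fell.

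Low-oxygen genes were divided, with both genotypes held in hypoxia. Of 27 regulators and targets of the hypoxia-inducible factors, 6 fell and 4 rose, shares near the background. Past 1.2-fold, 2 fell. Hif1a, the oxygen-regulated subunit, fell from 250.5 ± 18.9 to 203 ± 25.9 CPM (log2 -0.31 ± 0.09 SE), with overlap between the groups. Its edgeR adjusted p of 0.0212 became 0.0523 without KO library 2 and 0.0556 without KO library 3. Mif, a cytokine induced by low oxygen, fell from 379.7 ± 20.6 to 248 ± 12.5 CPM (log2 -0.61), and the mitochondrial protein Higd1a from 19.4 ± 0.734 to 13.7 ± 1.14 CPM (log2 -0.50). Egln3, a prolyl hydroxylase that marks HIF for decay, fell from 419.9 ± 63.2 to 306 ± 33.4 CPM (log2 -0.45), and the MYC antagonist Mxi1 rose from 153 ± 10.3 to 187 ± 10.1 CPM (log2 0.29). The letters ACGTG, the core of a hypoxia response element, stood in the promoters of 16 of the 22 matched genes, against 21.8% of all genes in the table. Among matched genes, they stood in 2 of 3 that rose, 5 of 6 that fell and 9 of 13 that were not called. Egln3 and Mxi1 are shown because they carry the letters (capitals) and moved in opposite directions. Another match for Mxi1 is not shown.
Egln3, chr12:54204079-54204123, - strand: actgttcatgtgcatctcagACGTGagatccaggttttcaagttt
Mxi1, chr19:53329327-53329371, + strand: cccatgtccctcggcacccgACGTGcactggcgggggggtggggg

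Genes that make and load the translation machinery fell. Of 81 cytosolic ribosomal protein genes, 60 fell (median log2 -0.25, range -0.48 to -0.09). The count was 32, 30, 32 and 34 without KO library 2, KO library 3, WT library 1 and WT library 3, and 1 was past 1.2-fold. Rps2, of the small subunit, fell from 1995, 1712, 1848 and 1808 CPM in WT to 1273, 1316, 1325 and 1426 CPM in KO (log2 -0.46 ± 0.07 SE), without overlap. Ribosomal protein genes have many processed copies, so their reads may be split. Of 34 ribosome biogenesis genes, 27 fell, with a larger median of -0.62, and 12 were past 1.2-fold. The nucleolar proteins Npm1 and Fbl fell from 637 ± 87.9 to 405 ± 47.3 CPM (log2 -0.65) and from 69.8 ± 10.6 to 42.8 ± 5.44 CPM (log2 -0.70). Of 20 aminoacyl tRNA synthetases, 17 fell (median log2 -0.44; 8 past 1.2-fold), Iars, the isoleucine enzyme, from 106 ± 5.13 to 70.7 ± 9.46 CPM (log2 -0.59). Of 38 proteasome genes, 32 fell (median log2 -0.35; 4 past 1.2-fold), the catalytic subunit Psmb6 from 66.6 ± 6.96 to 45.3 ± 2.89 CPM (log2 -0.56) and the regulatory subunit Psmd8 from 273 ± 15.7 to 189 ± 10.6 CPM (log2 -0.53).

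Serine synthesis and other targets of the amino acid response factor ATF4 fell in 13 of 23 cases, with 1 rise (7 falls past 1.2-fold). The rise was not called without KO library 1, 2 or 4 or WT library 1 or 3. Phgdh, the first enzyme of serine synthesis, was read at 128, 101.1, 131 and 120.4 CPM in WT and 60.3, 59.2, 56.0 and 80.6 CPM in KO (log2 -0.91 ± 0.12 SE, edgeR adjusted p = 0.000202), without overlap. Psat1, the next enzyme, fell from 125 ± 13.3 to 74.7 ± 12.8 CPM (log2 -0.74), and Shmt2, which passes the serine carbon into folate, from 147 ± 7.65 to 93.6 ± 15.9 CPM (log2 -0.65); KO library 4 was the highest KO library for both. Atf5, a related factor, fell from 68.7 ± 3.47 to 49.1 ± 4.48 CPM (log2 -0.48). The C/EBP-ATF core TGATGNAA stood in 7 of 20 matched promoters of this list, against 4.51% of all genes in the table, in 4 of the 12 matched genes that fell and in 3 of the 7 that were not called. Amino acid transporters fell in 11 of 21 cases (7 without KO library 2; 1 past 1.2-fold), Slc7a5, a large neutral amino acid carrier, from 291 ± 16.4 to 217 ± 35.0 CPM (log2 -0.42) and its partner Slc3a2 from 268 ± 8.51 to 222 ± 9.73 CPM (log2 -0.27).

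Arginine and polyamine genes hold the enzymes by which suppressor cells use arginine. Of 24 tested, 9 fell and 2 rose, and the summed level was 2590.3 to 2860.1 CPM in WT and 1971 to 2116 CPM in KO. Past 1.2-fold, 7 fell, and the rises numbered 1 without any 1 library other than KO library 2 and WT library 2. Ass1, which rebuilds arginine from citrulline, was read at 105.4, 112, 112 and 129 CPM in WT and 47.2, 45.9, 43.6 and 41.1 CPM in KO (log2 -1.37 ± 0.08 SE, edgeR adjusted p = 7.69e-07). Arg1, arginase, was read at 158, 169, 187 and 104 CPM in WT and 82.0, 43.4, 41.6 and 29.0 CPM in KO (log2 -1.66 ± 0.31 SE, edgeR adjusted p = 0.00360). The groups did not overlap for either; KO library 1 was the highest KO library for Arg1 and WT library 4 the lowest WT library. Nos2, the inducible nitric oxide synthase, fell from 52.9 ± 16.2 to 31.2 ± 3.57 CPM (log2 -0.76 ± 0.19 SE), with KO library 1 (35.4 CPM) just above WT library 3 (35.2 CPM). Odc1, the rate-limiting enzyme of polyamine synthesis, was read at 119, 87.5, 126 and 108 CPM in WT and 63.7, 67.3, 51.7 and 69.2 CPM in KO (log2 -0.80 ± 0.12 SE, edgeR adjusted p = 0.000428), without overlap. Eif5a, the translation factor that carries hypusine, fell from 1033 ± 122 to 695 ± 82.4 CPM (log2 -0.57). Azin1, which protects the Odc1 product from decay, did not pass, at 73.9 ± 6.396 (WT) and 66.1 ± 3.58 CPM (KO) (log2 -0.16).

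Counts for genes of cell division moved with single libraries. Of 43 replication genes, 10 fell, a share near the 17.6% over all genes, and 0 rose. Their median log2 fold change was -0.20, against -0.01 over all genes tested, and 41 were below 0. The count of falls was 4, 5, 4, 4, 4 and 5 without KO libraries 1 to 3 and WT libraries 1, 3 and 4. It was 20 without KO library 4 and 25 without WT library 2. Pola2, a polymerase subunit, fell from 42.8 ± 3.78 to 33.5 ± 1.99 CPM (log2 -0.35). Of 40 mitosis genes, 1 rose (Pttg1, above) and 2 fell, and the total was 1 without KO library 2 or 3 or WT library 1 or 3, 2 (2 rises) without KO library 1, 2 without WT library 4, 6 without KO library 4 and 7 without WT library 2.

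Of the genes tied to suppressive function, 3 of 20 rose and 5 fell. Without KO library 4 or without WT library 2, 5 rose and 3 fell, and without KO library 3 or WT library 4, 3 and 3. S100a8, S100a9 and the prostaglandin E synthase Ptges (from 6.49 ± 0.613 to 9.43 ± 0.804 CPM, log2 0.54) rose, while Arg1 and Nos2 were among the falls. Cd274, which encodes the checkpoint ligand PD-L1, fell from 74.6 ± 12.9 to 59.9 ± 5.82 CPM (log2 -0.32 ± 0.11 SE), with overlap. Its edgeR adjusted p of 0.0450 became 0.113, 0.0556, 0.0880, 0.0759 and 0.0775 without KO libraries 2, 3 and 4 and WT libraries 2 and 4. Of 16 checkpoint ligands and VISTA partners, 2 rose and 4 fell, Vsir and Cd274 among the falls. The falls numbered 2 without KO library 2 or 4 or WT library 2 or 4, and the rises 1 without KO library 3 or WT library 1 or 3. Cd47, which signals against phagocytosis, rose from 514 ± 19.7 to 660.1 ± 45.4 CPM (log2 0.36), and Pvr, a ligand of TIGIT and CD226, fell from 22.5 ± 1.94 to 16.2 ± 1.55 CPM (log2 -0.48).

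Stat3, the transcription factor downstream of IL-6, was not called. It was read at 254, 295, 241 and 274 CPM in WT and 309, 299.4, 314 and 274 CPM in KO (log2 0.17 ± 0.07 SE, edgeR adjusted p = 0.0958), and the ranges overlapped. Without KO library 4 the adjusted p was 0.0447, and without WT library 2 it was 0.0280. Its feedback inhibitor Socs3 fell from 97.3 ± 10.02 to 75.3 ± 14.1 CPM (log2 -0.37 ± 0.12 SE), with overlap and an edgeR adjusted p of 0.0303. That p became 0.0908, 0.0699, 0.0643, 0.0855 and 0.0542 without KO libraries 1, 2 and 4 and WT libraries 3 and 4. Of 23 genes of IL-6 and STAT3 signalling, 3 rose and 3 fell. Without KO library 4 these were 6 and 2, and without WT library 2 they were 6 and 3. Socs1, a JAK inhibitor, fell from 5.25 ± 0.338 to 3.59 ± 0.134 CPM (log2 -0.55), the kinase Jak1 rose from 251 ± 10.02 to 307 ± 10.8 CPM (log2 0.29), and Pias3, a STAT3 inhibitor, rose from 15.9 ± 1.13 to 22.05 ± 1.65 CPM (log2 0.48).

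Cytokine and chemokine genes changed in both directions. Of 12 cytokines tested from the list that holds Il6, Il10 and Tnf, 5 rose (median log2 0.25), and DESeq2 also called 1 lower. The risen numbered 3 without any 1 of KO library 1, KO library 2 and WT library 1, and 1 past 1.2-fold. Il1b, the cytokine interleukin 1 beta, was read at 261, 281, 242 and 288 CPM in WT and 202, 169, 174 and 102 CPM in KO (log2 -0.73 ± 0.17 SE, edgeR adjusted p = 0.00777), without overlap. Il1a, its relative, fell by log2 1.68, while Il18bp, the decoy receptor of its family member IL-18, rose from 6.60 ± 1.08 to 12.5 ± 0.936 CPM (log2 0.92). Over the 16 listed genes of the family and the inflammasome, 3 rose and 3 fell, shares close to those over all genes tested. Of 5 CXC chemokines, 3 fell: the neutrophil attractants Cxcl1 from 8.08 ± 1.27 to 2.95 ± 0.850 CPM (log2 -1.46), Cxcl2 from 129.6 ± 9.01 to 100.0 ± 14.8 CPM (log2 -0.37) and Cxcl3 from 18.7 ± 2.56 to 10.6 ± 3.75 CPM (log2 -0.81). Of 9 CC chemokines, 4 fell, led by Ccl17 from 12.1 ± 1.499 to 6.04 ± 0.653 CPM (log2 -0.999); without WT library 3, 3 fell and 1 rose. NF-kappaB subunits and feedback genes fell in 8 of 18 cases, and in 3 without any 1 of KO library 2, KO library 4 and WT library 4. Tnip3, an inhibitor of that pathway, fell from 24.3 ± 1.74 to 12.6 ± 3.45 CPM (log2 -0.95).

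Of 31 interferon-stimulated genes, 11 rose and 1 fell (median log2 0.27; 7 rises past 1.2-fold). Besides Cmpk2, the antiviral oligoadenylate synthetase Oas3 rose from 14.3 ± 2.29 to 25.5 ± 3.59 CPM (log2 0.83). Bst2, which tethers virions, was the fall, from 15.5 ± 1.94 to 9.40 ± 1.12 CPM (log2 -0.72). Of 22 immediate early genes, 8 rose and 1 fell, with 4 rises without WT library 3, 5 without KO library 1 or WT library 1, and 2 past 1.2-fold. Without KO library 3, 2 fell. Jun, a subunit of AP-1, rose from 265 ± 40.5 to 377 ± 26.0 CPM (log2 0.51), Ier2 rose from 123 ± 9.40 to 168 ± 10.6 CPM (log2 0.44), and the orphan receptor Nr4a1 fell from 339 ± 26.8 to 244 ± 31.1 CPM (log2 -0.48).

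Of 19 matrix proteases and inhibitors, 7 rose and 6 fell. The granule proteases Mmp9 and Mmp25 rose from 168 ± 5.35 to 318 ± 69.5 CPM (log2 0.92) and from 25.4 ± 2.48 to 42.5 ± 5.87 CPM (log2 0.74), while the macrophage elastase Mmp12 fell from 469 ± 42.1 to 214 ± 51.4 CPM (log2 -1.13). The matrix protein Spp1, osteopontin, fell from 430.0 ± 86.5 to 169 ± 26.6 CPM (log2 -1.35). Of 39 lysosomal genes, 16 fell and 1 rose (5 falls past 1.2-fold): Ctsz fell from 336 ± 28.5 to 204 ± 5.84 CPM (log2 -0.71), Ctsc, which activates granule proteases, from 1288 ± 140.4 to 799 ± 105.4 CPM (log2 -0.69), and Ctsk from 6.12 ± 2.05 to 1.88 ± 0.828 CPM (log2 -1.70), while Ctse rose from 22.9 ± 2.28 to 37.5 ± 4.53 CPM (log2 0.71). Of 18 prostaglandin and leukotriene genes, 7 rose and 3 fell (1 without KO library 2 or 3 or WT library 3). The lipoxygenases Alox15 and Alox5 rose from 10.1 ± 1.97 to 26.5 ± 5.31 CPM (log2 1.39) and from 266 ± 17.0 to 374 ± 32.2 CPM (log2 0.49), as did Lta4h, which makes leukotriene B4, from 310.2 ± 33.0 to 461 ± 61.5 CPM (log2 0.57). Slc40a1, the iron exporter ferroportin, rose from 49.2, 46.4, 47.3 and 46.5 CPM in WT to 107, 107, 107 and 96.6 CPM in KO (log2 1.14 ± 0.06 SE, edgeR adjusted p = 5.87e-07), while the iron store gene Fth1 fell. Of 27 iron and haem genes, 5 rose and 11 fell; the risen numbered 3 without KO library 1 or 2 or WT library 1 or 4.

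Chromosomes and windows differed in their share of genes with called changes of at least 2-fold. Chromosome 1 had 69 of 918 genes in this class (7.52%, against 4.04% overall), and the other autosomes and chromosome X had 1.97% to 5.08%. On chromosome 1, between 170 and 175 Mb (GRCm38), 21 of 81 tested genes were in it (25.9%), 12 higher and 9 lower. This and 3 further windows of 5 Mb are described because at least 7 such genes made up over 15% of those tested there, a rule set after the values were seen, and no test was made. The stretch holds immune receptor families. The SLAM receptors Slamf7, Cd244a and Ly9 fell, Slamf7 from 8.24 ± 2.81 to 1.597 ± 0.420 CPM (log2 -2.37) and Ly9 from 18.1 ± 1.496 to 8.39 ± 0.799 CPM (log2 -1.11), and Slamf1 rose from 1.27 ± 0.200 to 4.48 ± 1.10 CPM (log2 1.82). The inhibitory Fc receptor Fcgr2b was read at 209, 252, 183 and 197 CPM in WT and 587, 480.1, 510.3 and 363 CPM in KO (log2 1.21 ± 0.14 SE, edgeR adjusted p = 0.000106). Its neighbour Fcrla rose from 0.641 ± 0.255 to 9.64 ± 3.55 CPM (log2 3.90), and Fcrlb and Olfml2b, given above, lie there too.

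The same stretch holds the Ifi200 genes of DNA sensing, which have near-identical copies. Ifi202b had 154, 102, 180 and 79 counts in the KO libraries, and 0, 0, 0 and 1 count in the WT libraries. That is 535.6 times as many per unit of library, with a 95% exact interval of 95.7 to 21200 that covers counting error only. Ifi204 and Ifi209 fell from 10.6 ± 3.18 to 3.37 ± 0.694 CPM (log2 -1.66) and from 12.4 ± 1.96 to 5.34 ± 0.977 CPM (log2 -1.22). Chromosome 11 had 2 adjoining windows under that rule, 9 of 58 genes between 55 and 60 Mb (15.5%) and 10 of 60 between 60 and 65 Mb (16.7%). The later window holds Grap and Pmp22, and Adora2b, an adenosine receptor, which fell from 33.4 ± 3.68 to 15.98 ± 1.03 CPM (log2 -1.06). On chromosome 10, the window from 60 to 65 Mb around Vsir and Cdh23 had 7 of 40 (17.5%). These 4 windows hold 47 of the 606 genes, and the rest of the genome had 559 of 14779 (3.78%). Among windows with 5 or 6 such genes, the shares over 15% were those of chromosome Y from 90 to 95 Mb, where all 5 genes tested were in the class, Mid1-ps1 among them, and of chromosome 10 from 20 to 25 Mb, which holds Arg1 (5 of 29, 17.2%). More genes with a lower share were counted on chromosome 5 from 135 to 140 Mb (10 of 110, 9.09%).

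**Figure D4:**
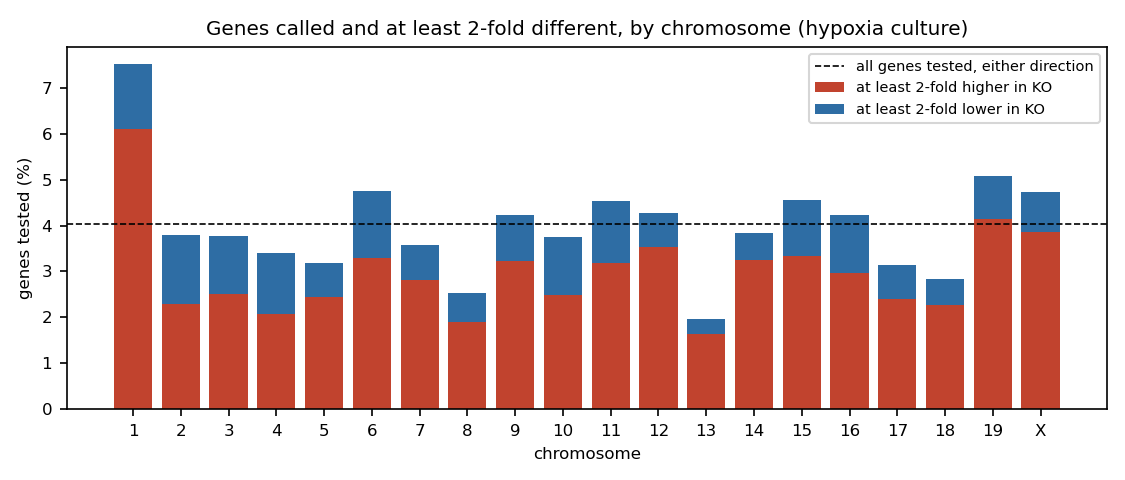
Share of tested genes (y axis, %) that were called and at least 2-fold higher (red) or lower (blue) in KO, by chromosome. The dashed line is the share over all genes, 4.04%; chromosome 1 stands at 7.52% and the other chromosomes shown at 1.97% to 5.08%.

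The KO effect in hypoxia was then set against that in normoxia by an interaction term over the 16 culture libraries. Oxygen cannot be told apart here from culture time or from the deposited table, so only the KO effects within each experiment are compared. Of 15293 genes tested, 73 had a called difference (0.477%): 29 with a higher effect in hypoxia (0.19%) and 44 with a lower one (0.288%). The count ran from 40 to 100 when single libraries were left out: it was 40 without hypoxia KO library 2, 43 without hypoxia KO library 4, and 41, 46 and 45 without hypoxia WT libraries 1, 2 and 3. Without normoxia KO library 3 it was 48, without normoxia WT library 2 it was 47, and without normoxia WT library 4 it was 40. DESeq2 called 200. Scaled by library size alone, 42 were called higher and 42 lower. Of 4937 genes called in hypoxia and tested in a fit of normoxia alone, 1198 were called there with the same sign and 13 with the other. In normoxia, 13 of 18 secondary and tertiary granule genes rose and 0 fell (median log2 0.80). Of 36 complex I subunits, 3 fell there and 0 rose.

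Mid1 had the largest difference, at 4.55 ± 0.46 SE (edgeR adjusted p = 0.000131). In normoxia it stood at 1.93 (WT) and 1.67 CPM (KO) (log2 -0.20). Pgr, the progesterone receptor, was read at 0.894, 1.15, 1.43 and 1.16 CPM in WT and 7.07, 8.64, 12.9 and 9.37 CPM in KO in hypoxia (log2 3.03 ± 0.21 SE). In normoxia it stood at 17.4 and 18.3 CPM, and the difference of effects was 2.96 ± 0.35 SE. Perp, a membrane protein of desmosomes and apoptosis, rose in hypoxia from 14.6 ± 0.544 to 19.0 ± 1.72 CPM (log2 0.37) and had a log2 fold change of -1.01 in normoxia, a difference of 1.38 ± 0.17 SE. Vcam1, an adhesion molecule, rose from 8.96 ± 1.72 to 20.99 ± 4.68 CPM (log2 1.23), with a difference of 1.76 ± 0.33 SE and an edgeR adjusted p of 0.0227. That p was 0.0596, 0.0546, 0.0636 and 0.0572 without hypoxia KO libraries 2 and 4 and WT libraries 1 and 2. It was 0.0546, 0.0586 and 0.0557 without normoxia KO libraries 1 and 3 and WT library 4.

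Among genes with a lower effect in hypoxia, Ccl17 and Plet1 had effects of opposite sign in the 2 experiments. Ccl17, a T cell attractant of dendritic cells, fell in hypoxia from 13.1, 10.8, 13.6 and 10.8 CPM in WT to 6.87, 5.54, 6.24 and 5.50 CPM in KO (log2 -0.999 ± 0.12 SE), and its log2 fold change in normoxia was 1.03 (difference -2.03 ± 0.32 SE, edgeR adjusted p = 0.00724). Plet1, a surface marker of antigen-presenting and epithelial cells, fell from 21.3 ± 3.25 to 11.1 ± 2.09 CPM (log2 -0.94) in hypoxia and had 1.16 in normoxia (difference -2.10 ± 0.26 SE). Ciita, the transactivator of class II genes, was not called in hypoxia, at 21.9 ± 5.66 (WT) and 19.0 ± 6.03 CPM (KO). In normoxia it stood at 1.54 (WT) and 8.73 CPM (KO) (difference -2.71 ± 0.46 SE, edgeR adjusted p = 0.0138). H2-Ab1 followed with a difference of -2.45 ± 0.49 SE (edgeR adjusted p = 0.0411). Leaving out 1 of 12 of the 16 libraries raised that p past 0.05, to between 0.0546 and 0.118; the exceptions were hypoxia KO libraries 1 and 3, normoxia KO library 1 and normoxia WT library 3. Vcan, a matrix proteoglycan, was not called in hypoxia (log2 -0.06) and had 1.37 in normoxia (difference -1.43 ± 0.26 SE, edgeR adjusted p = 0.0193). Without hypoxia KO libraries 2 and 4, hypoxia WT library 2 and normoxia WT library 4 that p was 0.0521, 0.0514, 0.05003 and 0.0510.

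**Figure D5:**
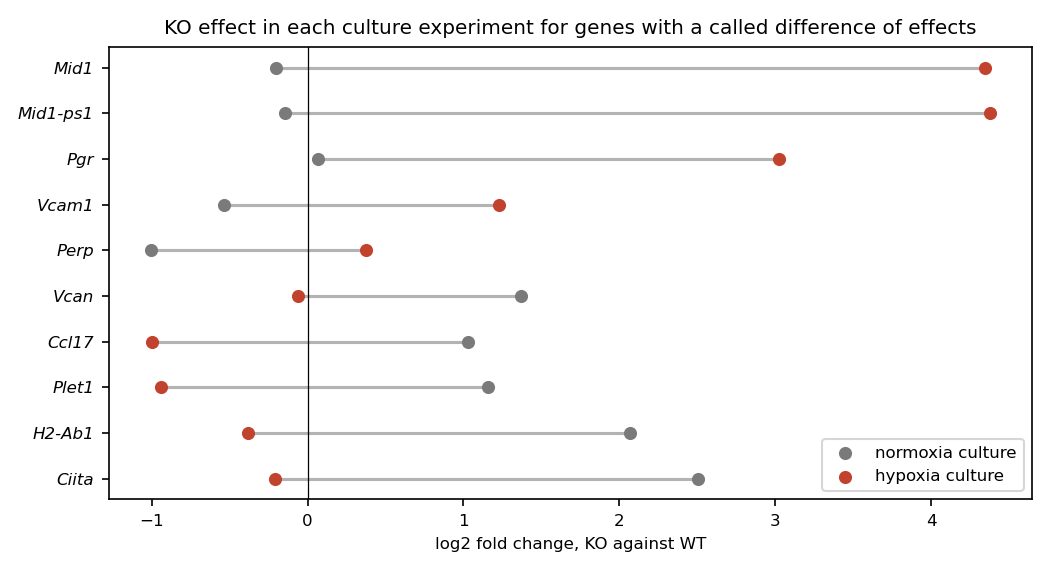
Log2 fold change of KO against WT (x axis) in normoxia (grey) and hypoxia (red) for the 10 genes named from the test of the difference. Each line joins the 2 effects of a gene; errors of the differences are given in the text. Mid1 has an effect of 4.35 in hypoxia and -0.20 in normoxia.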

How the data were processed

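RNA of 8 hypoxia and 8 normoxia culture libraries was analysed. Per the submitters' processing notes, reads were counted with featureCounts of Subread on GRCm38.p6 and DESeq2 was run; versions, filters and the strand setting are not given in the sources used here. The authors deposited raw counts per gene, 1 table per experiment, which were used as deposited, and tables of normalized signal; the hypoxia one holds the authors' counts divided by 1 factor per library and was used only as another scaling for Vsir. Columns coded VPK1 to VPK4 were read as the 4 KO libraries by elimination. Every gene in the hypoxia table had at least 2 counts in all.

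Genes were filtered with filterByExpr, scaled by TMM and tested with edgeR 4.0.16 (R 4.3.3; quasi-likelihood, robust; limma 3.58.1), KO against WT, with Benjamini-Hochberg adjustment over all genes tested and a threshold of 0.05. The difference between experiments was an interaction term over 16 libraries. CPM uses TMM-scaled library sizes. Vsir also had an exact two-sided permutation test. Positions and gene names are from GENCODE M21 (GRCm38; 33161 of 33265 genes matched) and promoter sequences from RefSeq (GRCm38.p6). Alternatives were DESeq2 1.42.0, a 1.2-fold threshold, library size alone, no filter, a replicate block and leaving out each library. At 30839108 to 31385825 counts per library the number of libraries, 4 per group, limits the precision.

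The members and the 75 gene lists were chosen with earlier results of these data known. Genes named were Vsir, the 12 largest rises and 12 largest falls (called, mean log2 CPM of at least 3, no overlap), the 8 largest CPM gains and 8 losses among called genes, up to 4 called members per list with the smallest p, the 5 largest called differences between experiments per direction, and 12 panel genes (Arg1, Nos2, Odc1, Stat3, Socs3, Hif1a, S100a8, S100a9, Ly6g, Ly6c2, Il1b and Cd274). Predicted genes were passed over, and uncalled list members were named where a sentence needed them. Ifi202b and the positions along chromosomes were looked at after their values were seen. Some genes that this rule names are not reported here.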

Additional observations from a re-analysis of the deposited data

Results flagged for a closer look

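Of 386 groups of 4 hypoxia libraries, 1 for each genotype and gene named, 25 (6.48%) held a library set far apart from the other 3 (Dixon's test at its 95% critical value). Chance gives about 1 in 20. The values are in CPM, against the range of the other libraries of the group. KO library 1 was the highest of its group for Adora2b (17.5 against 15.3 to 15.6), Eef1a1 (7056 against 6348 to 6418) and Pkm (4396 against 4266 to 4287). KO library 2 was the highest of its group for Cyfip2 (468 against 425 to 432). KO library 3 was the highest of its group for Icam1 (32.2 against 24.0 to 25.2) and Ly9 (9.58 against 7.87 to 8.14). KO library 3 was the lowest of its group for Gata1 (5.92 against 9.11 to 9.26). KO library 4 was the highest of its group for Psat1 (93.8 against 66.7 to 69.3), Scd2 (952 against 847 to 859), Shmt2 (117 against 84.1 to 89.0) and Slc7a5 (269 against 193 to 202). KO library 4 was the lowest of its group for Plet1 (7.97 against 11.8 to 12.3), Slc40a1 (96.6 against 107 to 107) and Vsir (113 against 156 to 163). WT library 2 was the highest of its group for Itgam (499.6 against 449.7 to 457) and Jak1 (266 against 245 to 247). WT library 2 was the lowest of its group for Cebpe (55.3 against 76.1 to 78.5), Gp9 (3.36 against 4.11 to 4.15), Lta4h (261 against 324 to 328) and Olfml2b (29.0 against 40.4 to 42.5). WT library 3 was the highest of its group for Batf3 (2.62 against 1.57 to 1.69). WT library 3 was the lowest of its group for Slamf1 (0.966 against 1.34 to 1.38). WT library 4 was the highest of its group for Kit (29.8 against 23.8 to 24.6), Mid1 (6.08 against 3.99 to 4.32) and Mxd1 (647 against 568 to 579.9). The KO effect changed between the experiments for several of the genes named, by edgeR's test of the difference (hypoxia minus normoxia, log2, adjusted p under 0.05). The difference was 4.55 for Mid1, 4.53 for Mid1-ps1, 2.96 for Pgr, 1.76 for Vcam1, 1.38 for Perp and 0.66 for Jun. It was -2.71 for Ciita, -2.45 for H2-Ab1, -2.10 for Plet1, -2.03 for Ccl17, -1.43 for Vcan, -1.12 for Olfml2b and -0.62 for Vim. The Vim call was lost without any 1 of 14 of the 16 libraries (adjusted p 0.0535 to 0.133); it was kept without hypoxia KO library 3 or normoxia WT library 3.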

How the results depend on the processing

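The count of 5245 genes called in hypoxia was 5492 with DESeq2 (98.3% of the reported calls shared), 5360 with library size alone, 4953 of 22350 genes without the filter, and 3859 (without WT library 3) to 5703 (without WT library 2) with 1 library left out. It was 1959 when more than a 1.2-fold change was asked for. The balance of directions depended on the scaling. With library size alone, 2185 genes rose and 3175 fell, against 2607 and 2638 with TMM. The median log2 fold change over all genes tested was then -0.05. The difference between experiments gave 73 calls, 84 with library size alone, 200 with DESeq2, and 40 to 100 with 1 library left out. The difference of log2(CPM + 1) for Vsir was -1.90 and ran from -1.77 to -1.95 with 1 library left out. Same-numbered KO and WT libraries had correlations of -0.0943, -0.115, -0.159 and 0.0189 between their deviations, and none correlated best with its own number. The labels do not say whether equal numbers share an animal, day or batch, and so few correlations cannot settle it. With a replicate block, 3942 genes were called in hypoxia and 40 differences between experiments; Cd274 and Eef1a1 (adjusted p = 0.0975 and 0.0668) were not called, nor were the differences for Ciita, H2-Ab1, Vcan and Vim (0.0828, 0.150, 0.0715 and 0.111). Of 193 genes named, 167 kept their call, or stayed uncalled, under every alternative run. Among 2509 values, 46 lost a call, 2 gained one and none changed sign with a call. Direction was not compared for genes that stayed uncalled. Of the 13 differences between experiments, 8 held throughout. Among calls lost at 1.2-fold were Thbs1, S100a8, Mpo, Ncf4, Pkm, Ccl6, Egln3, Mxi1 and Slc7a5. In simulated counts of this design, with 14835 genes, 65.2% of 1.5-fold, 84.6% of 2-fold and 98.5% of 4-fold changes were recovered. Only 66, 65 and 66 genes were changed at those folds, and 177 genes were called, against 5245 in the data. With fewer calls the adjusted p is stricter, so these shares do not measure recovery in the data. Smaller changes that were not called may have been missed.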

Other observations

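Surface receptors outside the lists above changed in both directions. Of 23 C-type lectin genes, 7 rose and 3 fell: Clec4a2, an inhibitory receptor, rose from 60.7 ± 2.78 to 94.8 ± 9.33 CPM (log2 0.64), and Clec12a, an inhibitory receptor of granulocytes and monocytes, rose from 167 ± 19.4 to 253 ± 18.6 CPM (log2 0.60). Of 7 Siglecs, 4 rose and 1 fell, and Siglece, which carries an inhibitory motif, went from 85.5 ± 10.4 to 129.6 ± 14.1 CPM (log2 0.60). Of 24 integrin, selectin and adhesion genes, 10 rose and 7 fell. Itgam, the CD11b chain of phagocytes, was read at 456, 499.6, 457 and 449.7 CPM in WT and 616, 560.5, 573 and 547 CPM in KO (log2 0.30 ± 0.06 SE, edgeR adjusted p = 0.00361), without overlap. Icam1, the ligand of that integrin, fell from 35.3 ± 2.63 to 26.4 ± 3.87 CPM (log2 -0.42). Of 19 chemoattractant receptors, 5 rose and 5 fell: Cxcr2, which draws mature neutrophils out of marrow, rose from 174 ± 23.4 to 258 ± 32.4 CPM (log2 0.57), and Ltb4r1, the leukotriene B4 receptor, from 163 ± 6.59 to 215 ± 15.2 CPM (log2 0.40). Cxcr4, which keeps them in marrow, went from 295 ± 21.6 to 435 ± 8.196 CPM (log2 0.56). Of 17 adenosine and purine genes, 2 rose and 5 fell, with Adora2b on chromosome 11 among the falls; the risen numbered 1 without KO library 1 or 2 or WT library 1.

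Lipid and redox genes also moved. Of 15 fatty acid synthesis genes, 7 fell and 1 rose, and the total was 4 without KO library 3, 4 without WT library 3 and 4 without WT library 4. The desaturase Scd2 went from 1183 ± 69.9 to 879 ± 48.9 CPM (log2 -0.43), and Scd1 from 201 ± 11.2 to 129 ± 15.03 CPM (log2 -0.64). Of 19 antioxidant genes, 3 rose and 6 fell; the peroxiredoxin Prdx1 fell from 199 ± 20.9 to 117 ± 10.2 CPM (log2 -0.76). Of 24 endoplasmic reticulum chaperones and stress regulators, 2 rose and 8 fell (5 without WT library 1 or 3), with Pdia4, a disulphide isomerase, going from 175 ± 19.2 to 113 ± 15.5 CPM (log2 -0.63).

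Some genes are known to differ between C57BL/6 substrains. Of the 8 such genes that were tested, 3 rose: Nlrp12, an inhibitory NOD-like receptor, from 8.01 ± 1.30 to 17.0 ± 1.70 CPM (log2 1.09), the actin regulator Cyfip2 from 259 ± 21.3 to 438 ± 19.6 CPM (log2 0.76) and Wdfy1 from 73.7 ± 4.80 to 91.7 ± 1.35 CPM (log2 0.32). Both groups carry the same strain label, and a part of strain background in these values, or in the windows on chromosomes 1, 10 and 11, was not tested.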
